A study of Mus musculus with 183 samples.

Results

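The immediate early transcription factor mRNAs examined here are the transcripts of 10 genes chosen by name: Fos, Fosb and Fosl1 of the Fos family, Jun, Junb and Jund of the Jun family, the zinc finger factors Egr1 and Klf6, and the immediate early response genes Ier2 and Ier3. All 10 were among the 53380 genes of the half-life count table. Mouse embryonic stem cells (mESCs), which are pluripotent cells of the early embryo kept in serum and LIF, received actinomycin D to block transcription, and RNA was sequenced after 120, 240 and 360 min and in mock libraries that received DMSO for 360 min. Both cell lines express CreERT2, which 4-hydroxytamoxifen (4OHT) activates to delete the floxed exons of Skiv2l, the helicase of the cytoplasmic exosome. The lines were the clone 5F, labelled Rosa26Cre-ERT2/- with Skiv2l fl/fl, and the clone 7E, labelled Rosa26Cre-ERT2/BirA-V6 (BirA-V5 in the paper) with Skiv2l 3xFLAG-Avi/3xFLAG-Avi and Aven-/-, in which the study floxed Skiv2l in cells that lack the RNA-binding protein AVEN. Each clone was sampled at day 0 and after 4 days of 0.1 µM 4OHT, and the 47 libraries make groups of 3, apart from clone 5F at 120 min of day 0, which has 2. Each genotype is 1 clone and the paper calls the replicates technical, so the tests measure the spread between these libraries and not between clones. A difference between genotypes cannot be told apart from a difference between the clones.

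Immediate early genes are transcribed within minutes of a growth factor or stress signal, without new protein synthesis, mostly through serum response factor and the ERK and other MAP kinases. Fos and Jun proteins pair through leucine zippers to form AP-1, which binds DNA, and their mRNAs are known for rapid turnover, to which AU-rich elements in the 3′ UTR contribute by recruiting deadenylation and decay factors. In the cytoplasm an mRNA is degraded from the 5′ end by XRN1 or from the 3′ end by the exosome with SKIV2L, whereas MTR4 assists the nuclear exosome.

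The pentamer ATTTA, the core of AU-rich elements, was searched on the sense strand of 1 annotated 3′ UTR per gene, with overlapping copies counted (T stands for U of the mRNA). Of 20650 mouse 3′ UTRs, 61.9% held at least 1 copy, and 7.01% held the nonamer TTATTTATT. The counts were 7 for Klf6, 5 for Ier3, 4 for Fos, 4 for Jun, 2 for Junb and 2 for Egr1, 1 each for Fosb, Fosl1 and Jund, and 0 for Ier2. The nonamer was found in the Fos 3′ UTR and in none of the other 9 searched. Among 3′ UTRs within 20% of the same length, 3.09% held at least as many copies as Ier3, 12.1% as Fos, 23.1% as Junb and 26.6% as Jun. The share was 38.7% for Klf6, 54.4% for Jund, 57% for Egr1, 59.1% for Fosl1 and 92.6% for Fosb. A match is a description of the sequence and not evidence of a functional site. A 30 nt window of 4 of the mRNAs is shown from 5′ to 3′ with each ATTTA in capitals, for the 3 members that lost the largest part of their RNA in the first 120 min of clone 5F at day 0 and for Jund, which lost the smallest part (GRCm38, strand of the gene).
Fos, chr12:85477102-85477131, plus strand: gtgttttcaATTTATTTAttaagatggatt
Ier3, chr17:35822485-35822514, plus strand: taattaatATTTAtgtATTTAtgtatatcc
Jun, chr4:95049207-95049236, minus strand: atcATTTAtaatcataggaaagATTTAgta
Jund, chr8:70700359-70700388, plus strand: cgattccgccctATTTAtgtttctactcgg
Fos, Ier3 and Jun hold 2 copies in the window shown and Jund 1, which is its only copy. Windows picked in the same way for Junb, Klf6, Fosb and Fosl1, which lost more of their RNA than Jund, also hold 1 copy each.

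The libraries held between 24440935 and 34114250 counts in genes. Values are normalized counts, that is counts divided by the size factor of the library and scaled to spike-in RNA by 1 factor per time point, so that a loss of RNA with time is kept. The counts were multiplied by this factor, whereas the paper's methods write of division. Division would make every share left 2.37, 3.55 and 5.22 times higher at 120, 240 and 360 min. In mock libraries Skiv2l, measured over the whole gene, stood at 148 ± 0.29 CPM (counts scaled to the library total; SD, n = 3) at day 0 and 143 ± 10.4 CPM at day 4 in clone 5F, a log2 change of -0.01 ± 0.05 (SE; edgeR quasi-likelihood test, adjusted p = 0.91), so the libraries labelled day 4 of clone 5F did not show a fall. In clone 7E Skiv2l fell from 33.6 ± 2.46 to 13.1 ± 0.703 CPM, a log2 change of -1.32 ± 0.07 (edgeR, adjusted p = 7.9e-13), and Aven stood at 2.32 and 1.62 CPM against 35.6 and 33.7 CPM in clone 5F. At day 0 Skiv2l was thus already lower in clone 7E than in clone 5F, at 33.6 against 148 CPM. A count over the whole gene does not by itself measure loss of the floxed exons, which the paper tested by RT-qPCR or western blot. All 10 embryonic stem cell markers examined were above 1 CPM in every group. Deviations of libraries from their group means had a main axis that held 53% of their variance, and the 6 libraries furthest along it were taken by rank. They were replicate 2 at day 0 and 240 min, replicate 1 at day 4 and 120 min and replicate 3 at day 4 and 360 min, in both clones. Others came close: replicate 1 of clone 5F at day 0 and 240 min stood at -0.254, against 0.261 for the smallest of the 6. No count of members past the threshold changed by more than 1.5 times without these 6 libraries.

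Before actinomycin D the 10 mRNAs covered a wide range of levels. Per kilobase of annotated exon, Ier2, a nuclear regulator of transcription, was the highest in clone 5F at day 0 with 1611 ± 91.9 normalized counts (SD, n = 3), followed by Klf6, a Krüppel-like factor, with 634 ± 30.4. Jund with 345 ± 42.6 and Junb with 294 ± 32 came next and did not differ beyond their spread. Ier3, a stress-induced regulator of apoptosis, had 155 ± 8.03 and Jun 111 ± 6.72. Lower levels were found for Egr1 with 47.1 ± 1.62, Fos with 35.2 ± 1.58, Fosl1 with 16.4 ± 2.27 and Fosb with 2.86 ± 0.225 normalized counts per kilobase. In these libraries the Jun family was more abundant per length than the Fos family. In clone 7E at day 4 the order was Ier2 with 2593 ± 191, Klf6 with 1630 ± 135, Jund with 1063 ± 136, Junb with 996 ± 80, Jun with 325 ± 20.6, Ier3 with 146 ± 10, Fosl1 with 68.2 ± 6.12, Fos with 60.1 ± 5.55, Egr1 with 27.4 ± 2.25 and Fosb with 3.1 ± 0.549, and again Jund and Junb, and Fosl1 and Fos, did not differ beyond their spread. Exons of Ccdc85b, Junos, Prdx2 and Gm11175 overlap those of Fosl1, Jun, Junb and Jund, respectively, on the opposite strand. As strand was not kept, reads of the shared stretches may be missing from the counts of these genes, which was not examined.

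**Figure D1:**
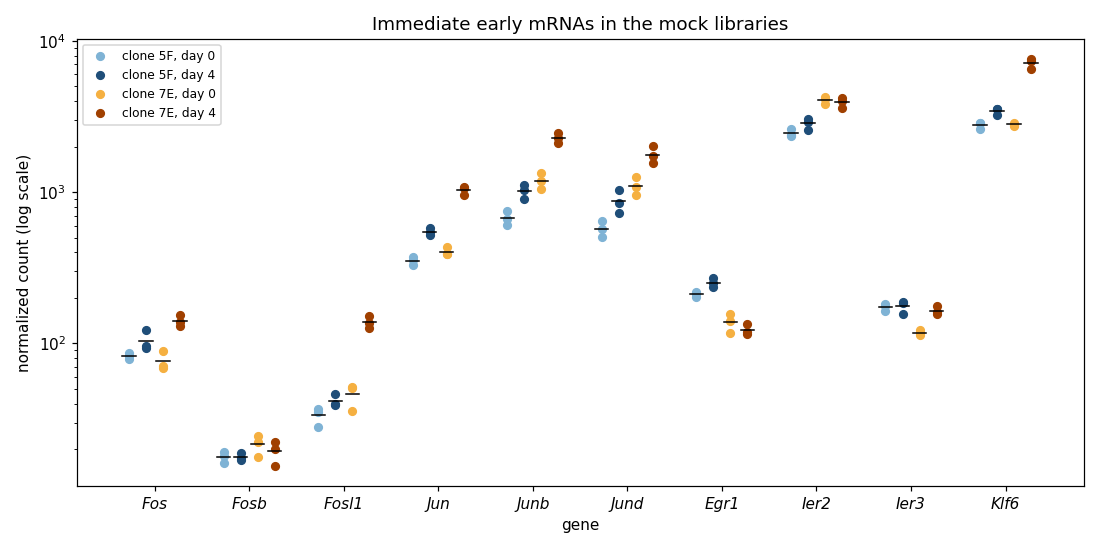
Normalized count (log axis) of each of the 10 genes in the mock libraries, with 1 point per library, a black bar for the mean of the 3 libraries of a group and colours for clone and day. Ier2 and Klf6 lie at 2341 normalized counts or more in every library and Fosb at 24.5 or less; Fosl1, Jun and Klf6 are highest in clone 7E at day 4.

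After 120 min of actinomycin D each of the 10 mRNAs had fallen in each clone on each day. In all 4 series, 10 of 10 members were called lower than in mock (edgeR quasi-likelihood test, Benjamini-Hochberg adjusted p under 0.05), while 76.8% of all genes were called lower in clone 5F at day 0, 80.6% in clone 5F at day 4, 80.8% in clone 7E at day 0 and 83.8% in clone 7E at day 4. A fall as such was thus common to most genes, and the members are described by its size. The median log2 change of the members was -2.86, -3.29, -2.65 and -2.88 in these 4 series, and that of all genes was between -0.79 and -0.81. The median level left at 120 min was 13.7%, 10.2%, 15.9% and 13.6% of mock for the members and between 58.1% and 59.3% for all genes with sufficient counts. At this time 8, 9, 7 and 9 members were below the fifth percentile of all genes in the 4 series. Because mock cells spent 360 min in fresh medium and treated cells 120 or 240 min, a difference in level from the time in fresh medium cannot be told apart from decay at these times.

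Fos, the founding member of the Fos family, had 79.5, 82.2 and 86.8 normalized counts in the mock libraries of clone 5F at day 0. It had 2.23 and 6.55 at 120 min, 3.05, 3.79 and 2.36 at 240 min and 0.414, 0.887 and 0.894 at 360 min. No treated library came near the mock libraries, and at 120 min 5.3% of the mock level was left. This is a log2 change of -4.21 ± 0.30 (SE; edgeR, adjusted p = 4.2e-11), an 18.5-fold fall that rests on 3 to 9 counts per library at 120 min. In clone 7E at day 0 the mock libraries had 68.5, 71.3 and 88.7 normalized counts and the libraries at 120 min 5.78, 4.35 and 11.3. The fall was -3.41 ± 0.28 there, -4.28 ± 0.24 in clone 5F at day 4 and -3.57 ± 0.24 in clone 7E at day 4, so that 5.12% to 9.38% of Fos was left at 120 min over the 4 series.

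Fosb and Fosl1, which encode further AP-1 subunits that pair with Jun proteins, were measured at low counts. Fosb had 19.1, 18.1 and 16.3 normalized counts in mock and 2.23 and 3.64 at 120 min in clone 5F at day 0, and reached 0 in 1 library each at 240 min of day 0 and at 120 and 240 min of day 4. The log2 fall of Fosb to 120 min was between -3.79 ± 0.58 in clone 5F at day 4 and -2.16 ± 0.35 in clone 7E at day 4. Fosl1 fell more slowly at day 0 than Fos. It had 28.2, 35.4 and 36.8 normalized counts in mock, 13.4 and 7.28 at 120 min, 4.88, 0.542 and 0 at 240 min and 0.828, 0.887 and 0 at 360 min in clone 5F. Thus 30.9% of Fosl1 was left at 120 min in clone 5F and 31.7% in clone 7E at day 0, the second largest remainder among the members after Jund, but 1.71% and 0.637% at 360 min. At day 4, 15.8% and 14% were left at 120 min. The fall of Fosl1 in clone 5F at day 0 was -1.69 ± 0.50 (edgeR, adjusted p = 0.0043) and was not called without replicate 3, at -1.25 ± 0.60 (adjusted p = 0.083, the highest of its 11 alternatives, the lowest being 1.3e-05).

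Jun, the partner of Fos in classical AP-1, had 329, 371 and 357 normalized counts in mock, 21.6 and 22.6 at 120 min, 15.9, 13.5 and 15.3 at 240 min and 13.2, 10.2 and 15.2 at 360 min in clone 5F at day 0. The level at 120 min was 6.26% of mock, a log2 change of -3.99 ± 0.18 (edgeR, adjusted p = 1.9e-14), and Jun fell on by -0.77 ± 0.23 from 120 to 360 min (edgeR, adjusted p = 0.0063). This call was lost without replicate 1, at -0.83 ± 0.36 (adjusted p = 0.079; 0.0052 to 0.079 over 12 alternatives). Junb, which can oppose Jun at some promoters, had 608, 754 and 667 normalized counts in mock and 69.2 and 84.4 at 120 min, which left 11.4% and is a log2 change of -3.14 ± 0.18. At 240 min Junb stood at 29.9, 40.1 and 24.2 and at 360 min at 38.5, 28.4 and 39.3 normalized counts. The libraries at 240 and 360 min overlap, so no further fall of Junb was seen between these times.

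Jund, the Jun family member that is expressed most constitutively, was the exception. It had 508, 650 and 568 normalized counts in mock, 271 and 355 at 120 min, 383, 324 and 259 at 240 min and 288, 283 and 276 at 360 min in clone 5F at day 0. All treated libraries were below the mock libraries, but they overlapped one another at all 3 times. The fall to 120 min was -0.88 ± 0.19 in clone 5F and -0.88 ± 0.17 in clone 7E at day 0, and -1.27 ± 0.16 and -1.21 ± 0.17 at day 4. At 120 min 54.5%, 41.5%, 54.4% and 43.4% of Jund was left over the 4 series, and 42.1%, 24%, 42.3% and 23.6% of all genes had less left. At 360 min the remainders of 49.1%, 39.7%, 39.9% and 41.9% were at or above the medians of all genes, which were between 39.5% and 40%.

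Egr1, a zinc finger factor induced by serum and ERK signalling, had 203, 212 and 218 normalized counts in mock, 21.6 and 34.9 at 120 min, 16.5, 7.04 and 17.1 at 240 min and 3.72, 12.9 and 6.7 at 360 min in clone 5F at day 0. The fall to 120 min was -2.90 ± 0.29 in this series and -2.61 ± 0.23, -2.23 ± 0.18 and -2.30 ± 0.18 in clone 5F at day 4, clone 7E at day 0 and clone 7E at day 4. Egr1 fell on after 120 min in all 4 series. In clone 5F at day 0 this call was lost without replicate 3, at -1.39 ± 0.56 in place of -1.87 (edgeR, adjusted p = 0.057; 1.8e-10 to 0.057 over 12 alternatives). Klf6 in clone 5F at day 0 had 2873, 2631 and 2848 normalized counts in mock, 477 and 489 at 120 min, 192, 232 and 177 at 240 min and 106, 113 and 117 at 360 min. Its libraries did not overlap between any pair of times in this series. Klf6 fell by a log2 change between -2.42 ± 0.09 and -2.74 ± 0.09 to 120 min in the 4 series.

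Ier2 had 2341, 2609 and 2404 normalized counts in mock, 334 and 357 at 120 min, 169, 153 and 127 at 240 min and 117, 98.5 and 109 at 360 min in clone 5F at day 0. Its fall to 120 min was between -2.66 ± 0.12 and -3.17 ± 0.11 in the 4 series, and no ATTTA was found in its 3′ UTR. Ier3 showed the largest fall of all members in clone 5F at day 0. It had 165, 183 and 178 normalized counts in mock, 3.72 and 6.55 at 120 min, 4.27, 2.17 and 4.13 at 240 min and 2.48, 1.77 and 4.02 at 360 min. The level at 120 min was 2.93% of mock, a 33.6-fold fall (log2 -5.07 ± 0.27, edgeR, adjusted p = 3.7e-13), and 0.536% of all genes had less left. This value rests on 5 and 9 counts in the 2 libraries at 120 min. The fall of Ier3 was -4.17 ± 0.20, -4.13 ± 0.26 and -4.29 ± 0.24 in the other 3 series, and in clone 5F at day 0 its libraries at 120, 240 and 360 min overlapped.

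**Figure D2:**
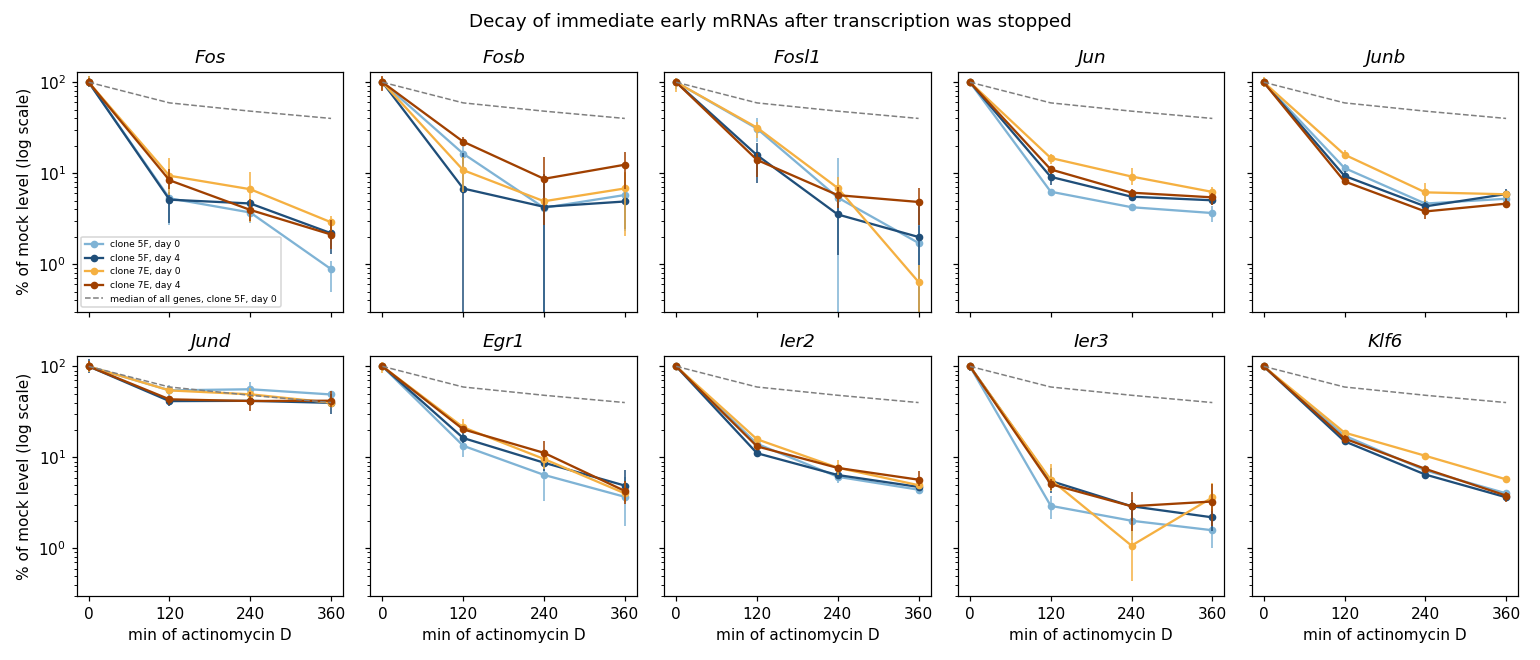
Percent of the mock level left (log axis) against min of actinomycin D for each of the 10 genes, with points for the mean of the libraries of a group, bars from the lowest to the highest library and a dashed line for the median of all genes in clone 5F at day 0; a bar that runs off the lower end marks a library at 0. Jund stays between 39.7% and 56% of mock from 120 min on in all 4 series, and the other 9 genes are at 12.4% or lower by 360 min.

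From 120 to 360 min the fall was smaller for most members, and also for all genes by the median. In clone 5F at day 0 the median log2 change of the members was -2.86 to 120 min and -1.57 from 120 to 360 min. That of all genes was -0.79 and -0.53, although the later interval is the longer. A slower late fall was thus not particular to the members. The members called lower over this interval were 7 in clone 5F at day 0, 8 in clone 5F at day 4, 8 in clone 7E at day 0 and 7 in clone 7E at day 4, beside 57.8%, 64.2%, 67.7% and 69.3% of all genes called lower. Fosb was not called in any of the 4 series, with log2 changes from -1.47 ± 0.84 to -0.47 ± 0.89, and Jund only in clone 7E at day 0, at -0.45 ± 0.17 (edgeR, adjusted p = 0.024; 3.4e-06 to 0.14 over its 12 alternatives). In clone 5F at day 0 the log2 rate of Jun changed from -2.00 ± 0.09 per hour before 120 min to -0.19 ± 0.06 per hour after it, and that of Ier3 from -2.53 ± 0.14 to -0.22 ± 0.12. The late rate of Ier3 rests on 5 and 9 counts at 120 min and 4 to 9 at 360 min, so it does not by itself show slower decay. Klf6 changed from -1.26 ± 0.05 to -0.53 ± 0.03 per hour and Egr1 from -1.45 ± 0.14 to -0.47 ± 0.10. Fosl1 at day 0 did not follow this order, with -0.85 ± 0.25 before and -1.0 ± 0.21 per hour after 120 min in clone 5F, which rests on 0 to 2 counts per library at 360 min. In clone 7E at day 0 Fosl1 stood at 0 or 1 count per library at 360 min, so no rate is given.

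**Figure D3:**
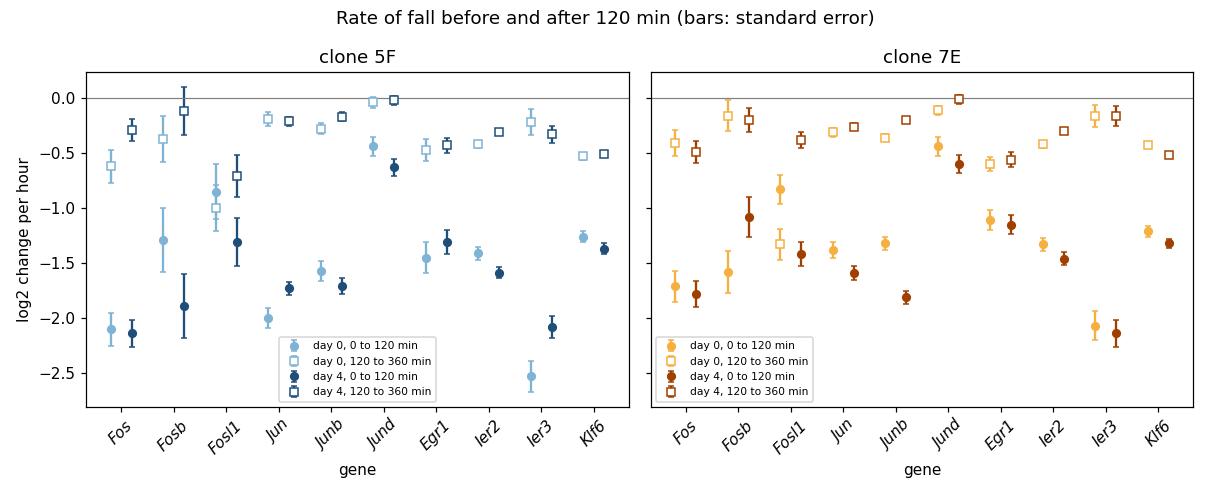
Log2 change per hour from mock to 120 min (filled circles) and from 120 to 360 min (open symbols) for each gene, by clone and day, with bars of 1 standard error. In clone 5F at day 0 the early rate is -2.53 for Ier3 and -0.44 for Jund, and most late rates lie closer to 0 than the early ones. The late rate of Fosl1 at day 0 rests on 0 to 2 counts per library at 360 min. That of Ier3 in clone 5F at day 0 rests on 4 to 9.

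Since the rate was not constant, a half-life depends on the times used. From all 4 times, by a least squares line through ln(normalized count + 1), half-lives were between 67.1 min for Ier3 and 117 min for Fosb in clone 5F, leaving out Jund with 382 min at day 0 and 299 min at day 4. From mock and 120 min alone, the half-life was 23.6 min for Ier3, 28.3 min for Fos, 30 min for Jun, 38.2 min for Junb, 41.4 min for Egr1, 42.4 min for Ier2, 46.1 min for Fosb, 47.5 min for Klf6, 70.8 min for Fosl1 and 137 min for Jund in clone 5F at day 0. The pseudocount changed the 4-time values of the members with low counts: for Fosb at day 0 of clone 5F the half-life was 92.9 min with a pseudocount of 0.5, 106 min with 1 and 187 min with 5.

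To ask whether loss of SKIV2L changed the decay of these mRNAs, the slope over all 4 times was compared between day 4 and day 0. No member was called in clone 5F, where 0.196% of all genes were called, and none in clone 7E, where 0.884% were called (edgeR; 0 of 10 members at an unadjusted p under 0.05 in either clone, and 0 by DESeq2 and by limma). Without the mock libraries Fosl1 was called in clone 7E, at 0.81 ± 0.17 log2 per hour in place of 0.24 ± 0.13 (edgeR, adjusted p = 0.016; 0.016 to 1 over 12 alternatives), beside 1.43% of all genes called. At 360 min of day 0 that Fosl1 slope rests on 0 or 1 count per library. In clone 5F the interval of ± 2 SE of the change in slope was -0.17 to 0.14 log2 per hour for Klf6, -0.18 to 0.25 for Ier2 and -0.17 to 0.58 for Fos. In clone 7E it was -0.25 to 0.05 for Klf6, -0.16 to 0.23 for Ier2 and -0.43 to 0.21 for Fos. These intervals bound the change of 1 straight line over all times, which does not follow the changing rate of these mRNAs. The misfit enters the SE, so the lack of calls does not show that decay was the same. The libraries labelled day 4 of clone 5F did not show less Skiv2l over the whole gene, which does not by itself measure loss of the floxed exons.

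The fall to 120 min was compared between the days in the same way. In clone 5F 0 of 10 members were called, beside 0.358% of all genes (edgeR; 3 members, Jun, Ier2 and Ier3, at an unadjusted p under 0.05, and 0 by DESeq2 and by limma). In clone 7E 1 member was called, Junb, beside 0.568% of all genes called with a larger fall. Junb had 1054, 1346 and 1178 normalized counts in mock at day 0 and 184, 215 and 175 at 120 min, and 2474, 2106 and 2294 in mock at day 4 and 201, 181 and 176 at 120 min. The mock libraries of the days did not overlap, whereas the libraries at 120 min did. The fall was larger at day 4, by -0.98 ± 0.17 log2 (edgeR, adjusted p = 0.0021), with 16% left at day 0 and 8.12% at day 4. This call was lost with each library scaled to its own spike-ins, at -0.77 ± 0.24 (adjusted p = 0.11), without replicate 2 (adjusted p = 0.078) and without replicate 3 (adjusted p = 0.055). Over its 12 alternatives the adjusted p ranged from 1.8e-09 to 0.11, and 9 of them called Junb. Fosl1 came next with -1.18 ± 0.36 and was not called (adjusted p = 0.12).

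Between the clones the early fall differed for Jun at day 0. Jun had 392, 434 and 390 normalized counts in mock and 51.4, 60.9 and 66.5 at 120 min in clone 7E, against 21.6 and 22.6 at 120 min in clone 5F. The libraries of the clones at 120 min did not overlap, with 14.7% left in clone 7E and 6.26% in clone 5F. The fall was smaller in clone 7E by 1.23 ± 0.23 log2 (edgeR, adjusted p = 0.0062), and Jun was the 1 member called, beside 0.113% of all genes called in either direction. The call was lost with each library's own spike-ins, at 1.12 ± 0.30 (adjusted p = 0.44), and without each replicate in turn, at 1.14 to 1.32. Over 13 alternatives the adjusted p ranged from 0.00048 to 1. At day 4 the difference for Jun was 0.27 ± 0.18, and 0 of 10 members were called beside 0.0913% of all genes (edgeR; 1 member, Fosb, at an unadjusted p under 0.05, and 0 by DESeq2 and by limma). With the replicate number as a block within day and time, 1 member was called at day 4, Ier2, at 0.25 ± 0.06 (adjusted p = 0.018), beside 3.56% of all genes called in that fit.

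Mock levels rose for several members after 4 days of 4OHT, and more so in clone 7E. Changes in mock level are relative to the typical gene of a library. Spike-in RNA took 0.275% to 0.32% of gene and spike-in counts in the other mock groups and 0.64% to 0.659% in clone 7E at day 4. With each library scaled to its own spike-ins, the median of all genes moved by -1.11 log2 between day 0 and day 4 of clone 7E and by -0.07 in clone 5F. Fewer cells and less RNA per cell cannot be told apart in these data. The values that follow are thus changes beyond this common shift.

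In clone 5F 6 of 10 members were higher at day 4, beside 12.8% of all genes called higher, and none was lower. Jun had 545, 521 and 582 normalized counts at day 4 against 329, 371 and 357 at day 0, with no overlap, a log2 change of 0.64 ± 0.08 (edgeR, adjusted p = 3.6e-06). Jund rose by 0.60 ± 0.10, Junb by 0.59 ± 0.08 and Klf6 by 0.31 ± 0.05. The smaller rises of Egr1, 0.26 ± 0.09 (adjusted p = 0.047; 0.036 to 0.42 over 12 alternatives, of which 3 called it), and of Ier2, 0.22 ± 0.06 (adjusted p = 0.0083; 3.1e-06 to 0.22, of which 8 called it), depended on the processing. Fos at 0.33 ± 0.15, Fosl1 at 0.32 ± 0.21, Ier3 at 0.01 ± 0.11 and Fosb at -0.01 ± 0.29 were not called.

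In clone 7E 7 of 10 members were higher at day 4, beside 20.7% of all genes called higher, and none was lower. Fosl1 had 51.6, 50.8 and 35.7 normalized counts at day 0 and 137, 127 and 152 at day 4, a 3-fold rise (log2 1.59 ± 0.16, edgeR, adjusted p = 3.5e-08). Klf6 had 2888, 2747 and 2801 at day 0 and 7417, 7572 and 6478 at day 4, a 2.54-fold rise (log2 1.35 ± 0.06). Jun had 392, 434 and 390 at day 0 and 1070, 962 and 1081 at day 4, a 2.56-fold rise (log2 1.36 ± 0.07). For these 3 genes the lowest library of day 4 was more than 2 times the highest of day 0. Junb rose by 0.94 ± 0.07, Fos by 0.89 ± 0.14, Jund by 0.69 ± 0.09 and Ier3 by 0.49 ± 0.12. Egr1 at -0.18 ± 0.13, Ier2 at -0.04 ± 0.06 and Fosb at -0.16 ± 0.29 were not called. With each library's own spike-ins, which include the common shift, Fosl1 was higher at day 4 by 0.49 ± 0.17, Jun by 0.26 ± 0.08 and Klf6 by 0.25 ± 0.05. In the same setting Egr1 at -1.27 ± 0.14, Fosb at -1.25 ± 0.29, Ier2 at -1.14 ± 0.06, Ier3 at -0.61 ± 0.12 and Jund at -0.41 ± 0.10 were called lower, beside 91.7% of all genes called in either direction. Fos at -0.21 ± 0.15 and Junb at -0.16 ± 0.08 were not called in that setting. Markers of other cell types moved with this contrast: 9 of 17 were called higher and 3 lower. Among the higher were Krt18, a keratin of simple epithelia, at 1.55 ± 0.06 and Acta2, smooth muscle actin, at 2.02 ± 0.15. Sox1 and Pax6 went the other way, from a mean of 14.4 to 3.38 CPM and from 51 to 39.6 CPM. The summed level of the 17 markers was 175 to 177 CPM at day 0 and 302 to 326 CPM at day 4 of clone 7E. Within this sum Krt18 went from 44.6 to 127 CPM and Pecam1 from 45.9 to 109 CPM. Both were present in every mock group, at means of 44.6 CPM or more for Krt18 and 34.9 CPM or more for Pecam1. The sum does not by itself measure other cells. In clone 5F the sum was 224 to 237 and 241 to 257 CPM. Of the 17, 3 to 5, such as the leukocyte marker Ptprc, were under 1 CPM. Embryonic stem cell markers summed to 3882 to 3987 CPM at day 0 and 3201 to 3280 CPM at day 4 of clone 7E. Of these 10 markers 8 were called lower and none higher in clone 7E, beside 6551 of 16333 genes called in either direction. In clone 5F 4 were called lower and 1 higher, beside 3998 of 16349 genes. The part of these markers in the change of the members was not tested.

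**Figure D4:**
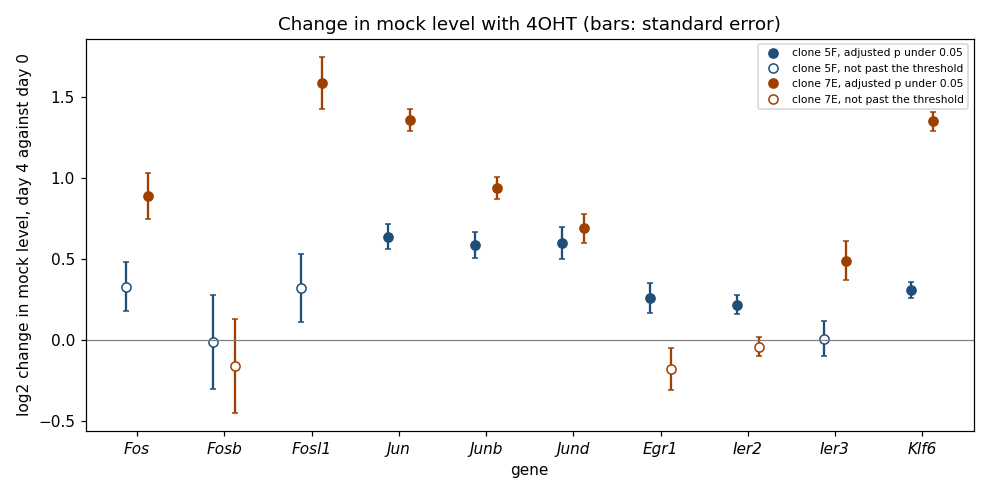
Log2 change in mock level at day 4 against day 0 for each gene, for clone 5F and clone 7E, with bars of 1 standard error and open points where the adjusted p did not pass 0.05. Fosl1, Jun and Klf6 stand at 1.35 to 1.59 in clone 7E and at 0.31 to 0.64 in clone 5F, where Fosl1 is not past the threshold; with each library's own spike-ins Fos, Junb, Jund and Ier3 change sign in clone 7E and Egr1, Fosb and Ier2 stand at -1.14 to -1.27.

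The response to 4OHT differed between the clones for 4 members, beside 6.65% of all genes with a larger response in clone 7E. The difference was 1.27 ± 0.26 log2 for Fosl1 (edgeR, adjusted p = 0.0016), 1.04 ± 0.08 for Klf6 (adjusted p = 3.2e-09), 0.72 ± 0.10 for Jun (adjusted p = 4.1e-05) and 0.48 ± 0.15 for Ier3 (adjusted p = 0.039). The call of Fosl1 was lost without replicate 3, at 0.94 ± 0.31 (adjusted p = 0.063), in 1 fit of all 47 libraries (adjusted p = 0.069) and with each library's own spike-ins, and its adjusted p ranged from 0.00019 to 0.4 over 13 alternatives. Ier3 was called in the same direction in 6 of 13 alternatives, with adjusted p-values from 0.0033 to 0.31 over all of them. Same-numbered libraries of the clones deviated together, and with the replicate number as a block within day and time 8 members were called. Fos at 0.57 and Junb at 0.35 were added with a larger response in clone 7E, and Egr1 at -0.44 and Ier2 at -0.26 with a smaller one, beside 24.1% of all genes called in either direction in that fit. With each library's own spike-ins the median of all genes was -1.03 and none of the 4 calls held. The difference was 0.25 ± 0.27 for Fosl1 (adjusted p = 0.4) and 0.01 ± 0.08 for Klf6 (adjusted p = 0.93) in that setting. Jun at -0.31 ± 0.12 and Ier3 at -0.55 ± 0.16 were called in the opposite direction.

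At day 0 mock levels already differed between the clones. Clone 7E was higher in Jund by 0.93 ± 0.12, Junb by 0.81 ± 0.09, Ier2 by 0.73 ± 0.06 and Jun by 0.20 ± 0.08, and lower in Egr1 by -0.60 ± 0.11 and Ier3 by -0.57 ± 0.11, beside 18.1% of all genes called higher and 18.1% called lower. The call of Jun was made in 4 of 13 alternatives (edgeR, adjusted p = 0.049; 0.01 to 0.76 over the alternatives). Egr1 had 141, 157 and 118 normalized counts in clone 7E against 203, 212 and 218 in clone 5F, and the groups did not overlap. At day 4 clone 7E was higher in 7 members, Fosl1 by 1.73 ± 0.16, Junb by 1.17 ± 0.09, Klf6 by 1.05 ± 0.06, Jund by 1.02 ± 0.11, Jun by 0.92 ± 0.07, Ier2 by 0.47 ± 0.06 and Fos by 0.44 ± 0.13, and lower in Egr1 by -1.04 ± 0.11, beside 20.3% of all genes called higher and 20% lower. The call of Fos at day 4 was lost without replicate 1, at 0.31 ± 0.17 (edgeR, adjusted p = 0.21), without replicate 2, at 0.38 ± 0.17 (adjusted p = 0.095), and in 1 fit of all 47 libraries (adjusted p = 0.061), with 2.6e-05 to 0.21 over 13 alternatives. With each library's own spike-ins the median of all genes moved by -1.20, and of the 7 members that were higher Fosl1 alone stayed above 0, at 0.54 ± 0.18. Markers of other cell types also differed between the clones at day 0, with 4 of 17 called higher and 10 lower in clone 7E. Gata4, Gata6 and Sox17, genes of the endoderm, were lower in clone 7E by -3.46 ± 0.09, -3.43 ± 0.12 and -3.30 ± 0.15. Sox1 and Pax6 were higher in clone 7E, at a mean of 14.4 against 3.2 CPM and 51 against 25 CPM. The part of these markers was not tested.

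Other genes of the pathway were taken from fixed lists. For comparison, 76.8% to 83.8% of all genes were called lower at 120 min in the 4 series. In mock libraries at day 4, 12.8% of all genes were called higher in clone 5F and 20.7% in clone 7E. In either direction 3998 of 16349 genes were called in clone 5F and 6551 of 16333 in clone 7E. Of 40 further immediate early genes 33 were measured, and 33 of 33 were called lower at 120 min in each of the 4 series, with median log2 changes of -2.53, -2.50, -2.38 and -2.48. The largest falls in clone 5F at day 0 were those of Dusp1, a MAP kinase phosphatase, at -4.82 ± 0.27, the pseudokinase Trib1 at -3.88 ± 0.23 and the ERK phosphatase Dusp6 at -3.87 ± 0.11. In mock libraries 12 of these genes were higher and 1 lower at day 4 in clone 5F, with Atf3, a stress-induced bZIP factor, at 0.92 ± 0.09 and the growth arrest gene Gadd45b at 0.78 ± 0.07. In clone 7E 16 were higher and 3 lower, with Atf3 at 2.61 ± 0.10, Ptgs2, the inducible cyclooxygenase, at 2.37 ± 0.11 and the Fos family gene Fosl2 at 1.51 ± 0.12. The fall to 120 min of Plk2, a polo-like kinase, was larger at day 4 by -0.59 ± 0.11 in clone 5F and -1.16 ± 0.14 in clone 7E, and that of the antiproliferative gene Btg2 by -1.05 ± 0.12 in clone 7E.

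Of 18 other bZIP partners of AP-1, 16 were measured over the time course, and their median fall to 120 min in clone 5F at day 0 was -0.95, against -2.86 for the members. Mafk, a small Maf protein, fell by -2.49 ± 0.20. In mock libraries of clone 7E 8 of 15 were higher and 1 lower at day 4, with Jdp2, a repressor that pairs with Jun proteins, at 1.80 ± 0.16 and Atf4, the effector of the integrated stress response, at 1.35 ± 0.05. In clone 5F 3 were higher and none was lower, and Atf4 stood at 0.82 ± 0.04. Of 23 measured kinases, feedback regulators and serum response factor regulators upstream, 3 were higher and 7 lower at day 4 in clone 7E. In clone 5F 2 were higher and 6 lower. The shares called higher were below those of all genes, 20.7% in clone 7E and 12.8% in clone 5F. Fgf4, the ligand that drives ERK in these cells, stood at -0.93 ± 0.05 in clone 7E. Elk1, a ternary complex factor, stood at -0.43 ± 0.08 in clone 7E and -0.39 ± 0.07 in clone 5F. Of 15 proteins that bind AU-rich or related elements, 5 were higher and 2 lower in clone 7E and 5 higher and 1 lower in clone 5F and Zfp36l1, which recruits deadenylases, stood at 0.28 ± 0.06 in clone 7E and 0.32 ± 0.06 in clone 5F.

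Over the 16 groups of clone, day and time, the genes outside the list whose log2 mean levels were most like those of Fos were Kif24, Lcmt2 and Ehd3, with a Pearson correlation of 0.992, 0.991 and 0.991. For Jun they were C78283, Mfap3l and Rab2b at 0.985, 0.985 and 0.984, for Egr1 Homer2, Hivep1 and Pfas at 0.993, 0.992 and 0.991, and for Klf6 Ndn, Golph3 and Baz1a at 0.996, 0.995 and 0.994. These values describe a shared course over time that many genes had: 384 of 10588 genes passed a correlation of 0.95 with Jun, and 3001 did with Egr1. The measure does not hold the size of the fall, since 43% of Kif24 was left at 120 min in clone 5F at day 0 against 5.3% of Fos. Among the members, the correlation of Fos was 0.98 with Ier2 and 0.97 with Jun, and 0.78 with Jund.

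In the study, crosslinking and analysis of cDNA (CRAC) mapped the RNA bound by tagged MTR4, SKIV2L and XRN1, and the authors' deposited ratios give the share of each protein in their pooled, depth-scaled counts on an mRNA, so the 3 values sum to 1. Of the members, 7 were among the 7240 mRNAs listed, and Fos, Fosb and Fosl1 were not. The values are pooled over libraries, so there is no replicate error and no test. The relative binding of MTR4 was above the median of all mRNAs (0.319) for 7 of 7: 0.699 for Egr1, 0.601 for Junb, 0.482 for Ier3, 0.455 for Jun, 0.44 for Klf6, 0.434 for Ier2 and 0.425 for Jund. These lie between the percentiles 70.6 and 94.9. The relative binding of SKIV2L was above its median (0.267) for 1 of 7, Jun with 0.353, and was 0.0456 for Egr1, at the percentile 0.981, and 0.0987 for Junb. XRN1 was above its median (0.337) for 1 of 7, Jund with 0.415. Because the ratios sum to 1, a high value for MTR4 lowers those of the others.

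The RNA levels of the tagged lines went only in part with this order. The authors' deposited RPKM was highest in the MTR4 line for 5 of 7 members, and for 37.9% of all listed mRNAs. Jun had 4.01 RPKM in the MTR4 line, 2.53 in the SKIV2L line and 1.81 in the XRN1 line, and Ier3 had 4.33, 3.57 and 4.43. Klf6 had 15.9, 17.2 and 14.5. Junb had similar levels in the 3 lines, 23.1, 21.9 and 21.2, and yet unlike ratios. Egr1, with the most extreme ratios, had the lowest RPKM of the 7 in each line, at 1.07, 0.527 and 0.601. The CRAC counts behind its ratios were not examined. With each ratio divided by the RPKM of its line and rescaled to a sum of 1, MTR4 was above the median for 6 of 7, all but Jun, which was at the percentile 49.1, SKIV2L for 2 of 7 and XRN1 for 3 of 7. Egr1 at the percentile 86.8 and Junb at 88.3 remained the highest for MTR4. The AVEN ratio, AVEN counts relative to the 3 decay factors, was above its median (0.295) for 2 of 7, with 0.508 for Egr1 at the percentile 88.4 and 0.361 for Ier2 at 66.4, and was lowest for Ier3 with 0.104 and Junb with 0.119.

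**Figure D5:**
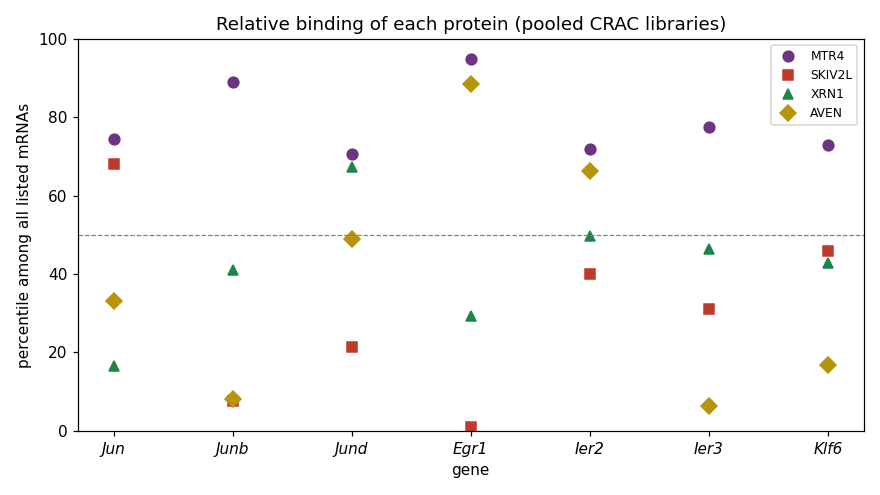
Percentile among 7240 mRNAs of the relative binding to MTR4, SKIV2L, XRN1 and AVEN for the 7 listed members, from the authors' pooled values without replicate error; the dashed line marks the median. MTR4 lies above the line for all 7 genes, with Egr1 at 94.9 and Jund at 70.6, and SKIV2L for Egr1 at 0.981 is the lowest point; with division by RPKM the MTR4 point of Jun moves to 49.1.

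In GRCm38 Fos lies on chr12:85473890-85477273 (plus strand), Fosb on chr7:19302696-19310051 (minus), Fosl1 on chr19:5447547-5455946 (plus), Jun on chr4:95049034-95052222 (minus), Klf6 on chr13:5861482-5870394 (plus), Egr1 on chr18:34859823-34864984 (plus) and Ier3 on chr17:35821684-35822923 (plus). Junb (chr8:84974484-84978718, minus), Ier2 (chr8:84661331-84662852, minus) and Jund (chr8:70698949-70700616, plus) share chromosome 8.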

How the data were processed

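The libraries of the half-life experiment were made from total RNA with added ERCC spike-ins after removal of ribosomal RNA, without strand. The authors mapped the reads to mm10 with STAR and deposited whole-number counts per gene, which are not normalized. Total counts in genes ranged from 24440935 to 34114250 per library, which leaves the members with under 10 counts at late times imprecise. For binding, the authors pooled and scaled CRAC counts and deposited the ratio of each protein to their sum. The RPKM of each tagged line was also deposited. The authors' deposited fold changes, p-values and half-lives were not used. 0 columns of per-sample counts were left out, and the remaining replicate of clone 5F at day 0 and 120 min was not analysed here.

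Libraries of the same time point were brought to a common scale by size factors (DESeq2 1.42.0), and 1 factor per time point, from 34 ERCC sequences with a mean above 50 counts, scaled normalized counts by 1, 0.6489, 0.5311 and 0.4375 at 0, 120, 240 and 360 min. The factor is the ratio of gene to spike-in counts relative to mock. The paper's methods write of division by it, and multiplication was used here, which lowers levels where less RNA was present per spike-in. The counts were tested in R 4.3.3 by the quasi-likelihood test of edgeR 4.0.16 after filterByExpr, with Benjamini-Hochberg adjustment over all genes tested and a threshold of 0.05. Falls and changes in decay came from 1 fit per clone over both days and all times, mock levels from the mock libraries, and differences between the clones in the early fall from all 47 libraries. The scripts were tested on simulated data. Annotation was Gencode M21 on GRCm38, and binding was compared as percentiles.

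The members, the lists of other genes and the tests were chosen with earlier results of these data known. All 10 members were named. From the other lists up to 3 genes were named for a comparison, those with the largest change among the genes called, with a mean of at least 100 counts. The genes of most similar course were the 3 with the highest Pearson correlation for each of Fos, Jun, Egr1 and Klf6.

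The alternatives comprised scaling by TMM or by the spike-ins of each library, tests by DESeq2 and limma 3.58.1, no filter or a stricter filter, a replicate block, leaving out each replicate or the mock libraries, and 1 fit of all libraries. A block within day and time, leaving out the 6 libraries that deviated most and the division by RPKM were added after seeing the data. Same-numbered libraries of the 2 clones at the same day and time deviated together in 23 of 23 pairs (correlation 0.12 to 0.84), so the numbers pair the clones; across days (13 of 23 pairs over 0.1) and between mock and 120 min (6 of 11) they do not. Replicates differed by a chi-square per gene of 3.2 or more, so all were counted as separate.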

Additional observations from a re-analysis of the deposited data

Results flagged for a closer look

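These results were singled out because an effect differed between the clones or between the days by a test of the difference itself (edgeR quasi-likelihood test, Benjamini-Hochberg adjusted). The response of the mock level to 4OHT was larger in clone 7E than in clone 5F by 1.27 ± 0.26 log2 for Fosl1 (adjusted p = 0.0016), 1.04 ± 0.08 for Klf6 (adjusted p = 3.2e-09), 0.72 ± 0.10 for Jun (adjusted p = 4.1e-05) and 0.48 ± 0.15 for Ier3 (adjusted p = 0.039). With each library's own spike-ins none of these 4 held: Fosl1 stood at 0.25 and Klf6 at 0.01, not called, and Jun at -0.31 and Ier3 at -0.55. Jun, Klf6 and Fosl1 were higher at day 4 in 3 of 3 libraries of clone 7E, and Ier3 as well.

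The fall of Junb to 120 min was larger at day 4 than at day 0 of clone 7E by -0.98 ± 0.17 log2 (edgeR, adjusted p = 0.0021), while the libraries at 120 min of the 2 days overlapped and the mock libraries did not. The fall of Jun to 120 min at day 0 was smaller in clone 7E than in clone 5F by 1.23 ± 0.23 log2 (edgeR, adjusted p = 0.0062), with 2 libraries at 120 min in clone 5F. Single libraries were not tested for outliers, since the groups held 2 or 3.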

How the results depend on the processing

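Of 2299 values recomputed under an alternative, 2145 kept their direction and their side of the threshold, 55 lost the threshold and 23 gained it. The sign changed for 63 values, of which 16 were past the threshold in at least 1 of the settings compared and 47 in neither, and 13 further values moved to or from 0. Limits are set by depth for Fosb, Fos, Fosl1 and Ier3, each with under 10 counts in most of the libraries treated with actinomycin D, and by the replicates, which are technical and come from 1 clone per genotype. Leaving out replicate 1 leaves 1 library of clone 5F at day 0 and 120 min, which is then assumed to vary like the other groups. A cause was not tested for any of the changes below, other than the common shift that each library's own spike-ins add.

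With each library's own spike-ins, 25 values changed sign, 9 of them past the threshold in neither setting. The other 16 are given here. In clone 7E at day 4 against day 0, Fos stood at -0.21, Junb at -0.16, Jund at -0.41 and Ier3 at -0.61 log2. In clone 7E against clone 5F at day 4, Fos stood at -0.75, Fosb at -1.06, Jun at -0.27, Junb at -0.02, Jund at -0.17, Ier2 at -0.72 and Klf6 at -0.14. For the difference in response to 4OHT, Fos stood at -0.47, Jun at -0.31, Junb at -0.68, Jund at -0.94 and Ier3 at -0.55. The numbers of members called were then 8 in place of 4 for the difference in response, beside 83.5% of all genes, 0 in place of 1 for the early fall in clone 7E between the days and 0 in place of 1 for the early fall between the clones at day 0. Without the mock libraries 1 member in place of 0, Fosl1 at 0.81 log2 per hour, had another slope at day 4 in clone 7E. At 360 min of day 0 this Fosl1 slope rests on 0 or 1 count per library. In 1 fit of all 47 libraries 2 members were called for the difference in response.

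The replicate number as a block within day and time called 8 members in place of 4 for the difference in response (24.1% of all genes) and 1 in place of 0 for the early fall between the clones at day 4 (3.56% of all genes). A replicate block over all days and times called 4 and 0 for these and moved no number of members called by more than 1.5 times. Without 1 replicate each in turn, the members called were 0 to 1 for the early fall in clone 7E between the days, 0 to 0 for that between the clones at day 0, 3 to 5 for the difference in response, 4 to 6 and 7 to 7 for mock levels between the days in clones 5F and 7E, 5 to 6 and 7 to 8 for mock levels between the clones at days 0 and 4, 5 to 8, 6 to 7, 6 to 8 and 7 to 8 for the change from 120 to 360 min, and 9 to 10 and otherwise 10 to 10 for the fall to 120 min.

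Over all genes and alternatives, the genes called ranged from 2 to 44 (35 in the main setting) and 26 to 267 (154) for the slope in clones 5F and 7E, 44 to 130 (64) and 62 to 431 (242) for the early fall between the days, 9 to 72 (21) and 0 to 663 (17) for the early fall between the clones at days 0 and 4, 753 to 14372 (2056) for the difference in response, 1793 to 4399 (3998) and 4320 to 14974 (6551) for mock levels between the days, and 4089 to 8037 (6231) and 4774 to 16021 (6945) for mock levels between the clones.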
